A study of Mus musculus with 2 samples.

Results

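The naive state transcription factors described here are 10 mouse genes, Klf2, Klf4, Klf5, Esrrb, Tfcp2l1, Tbx3, Nr0b1, Gbx2, Prdm14 and Nr5a2. They were taken by symbol from a table of 50508 genes, and 10 of 10 were found in it. The table holds RNA sequencing of the embryonic stem cell line E14, derived from 129/Ola mice, at passages 15 to 18. All cells grew on gelatin; the labels name no MEK or GSK3 inhibitor. They were kept in medium with 15% serum and 1000 U/ml of the cytokine LIF. They received either a scramble siRNA or an siRNA against Mettl8 by lipid transfection, and RNA was taken after 72 h. Each of these groups is represented by 1 library. The series record mentions triplicates, and no label says whether a library pools several cultures.

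Naive pluripotency is the state of the early epiblast that mouse embryonic stem cells keep in culture. A set of transcription factors holds it, and several of them can stand in for one another. LIF acts through STAT3 on Klf4, Tfcp2l1 and Gbx2, while relief from the WNT-controlled repressor TCF3, encoded by Tcf7l1, acts on Esrrb, Tfcp2l1, Klf2 and Nr5a2. FGF signalling through ERK works in the opposite direction and prepares the cells for differentiation. The factors feed into the core network of OCT4, SOX2 and NANOG, and most of them are silenced when cells pass to the formative and primed states.

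Levels are in FPKM, reads scaled to the length of the gene and to the depth of the library. Mettl8, the siRNA target, was at 0.67 FPKM (library labelled scramble siRNA) and at 100.3 FPKM (library labelled Mettl8 siRNA). The targeted gene goes against the label. Directions below therefore compare the libraries as labelled, Mettl8 siRNA against scramble siRNA, and pairs of values give the library labelled scramble siRNA first. With 1 library per group there is no spread between cultures and no test. The intervals given are 95% counting intervals from read numbers rebuilt out of the deposited values, exact Poisson for a level and exact Clopper-Pearson for a ratio, and they cover counting error only. The rebuilt totals were 28.5 and 27.8 M reads (M, 10 to the power 6), of which the 10 factors took 34793 and 33560.

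The factors were expressed in both libraries, and none differed by as much as 1.5-fold. Of 9965 protein-coding genes with a mean of at least 1 FPKM, only 10 did so on the log2(FPKM + 1) scale. Klf2 and Klf4, a pair of Kruppel-like factors, were at 0.866 and 0.868 times their level in the library labelled scramble siRNA, and the homeobox factor Gbx2 was 15.7% higher. Of the 10 factors, 6 were lower and 4 higher, with a median difference of -0.052 on the log2(FPKM + 1) scale. This balance depends on the scaling. With both libraries set to the same FPKM sum, 3 were lower and 7 higher and the median was 0.036. Klf5, Esrrb and Nr5a2 then changed from lower to higher. That sum was 623700 and 584500 FPKM over all genes as deposited, and 142900 and 144000 over protein-coding genes. With the median ratio set to 1 instead, all 10 directions were kept and the median of the factors was -0.077. As deposited, 44.5% of 9965 protein-coding genes with a mean of at least 1 FPKM were lower, and their median was 0.013. Over all 13243 genes at that level the median was also 0.013 as deposited, and 0.089 with the same FPKM sum. The factors had a lower median than all genes as deposited. Rescaling multiplies a library by a constant and moves both medians by nearly the same amount, so it cannot test this order. A 2-fold difference was reached by 0 of 10 factors and by 0.0201% of the protein-coding genes. At 1.1-fold on the same log2(FPKM + 1) scale, 2 factors were lower (Klf2 and Klf4) and 1 was higher (Gbx2), against 9.3% and 9.89% of protein-coding genes. Tbx3 missed this count because of the added 1, which understates differences of low genes; its plain FPKM ratio was 0.893.

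Klf2, Klf4 and Gbx2 had the largest differences among the 10, so the stretch upstream of each is shown. The sequences are from RefSeq on GRCm38.p6, run 5′ to 3′ on the strand of the gene and end before the first annotated base of the transcript. Capitals mark matches on either strand to the GC box GGGCGG and the CACCC box CACCC, the 2 short elements that Kruppel-like and SP factors are known to bind.

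Klf2, chr8:72318812-72319032, plus strand: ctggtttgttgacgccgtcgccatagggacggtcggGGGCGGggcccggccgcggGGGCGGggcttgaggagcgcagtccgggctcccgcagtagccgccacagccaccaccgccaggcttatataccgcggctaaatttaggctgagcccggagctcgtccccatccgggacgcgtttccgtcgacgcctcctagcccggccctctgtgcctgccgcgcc
Klf4, chr4:55532476-55532725, minus strand: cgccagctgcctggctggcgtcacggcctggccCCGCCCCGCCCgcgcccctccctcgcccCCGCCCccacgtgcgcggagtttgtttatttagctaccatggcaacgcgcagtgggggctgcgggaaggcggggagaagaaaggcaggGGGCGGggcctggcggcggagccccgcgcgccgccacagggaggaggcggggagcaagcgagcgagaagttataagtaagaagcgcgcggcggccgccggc
Gbx2, chr1:89931180-89931426, minus strand: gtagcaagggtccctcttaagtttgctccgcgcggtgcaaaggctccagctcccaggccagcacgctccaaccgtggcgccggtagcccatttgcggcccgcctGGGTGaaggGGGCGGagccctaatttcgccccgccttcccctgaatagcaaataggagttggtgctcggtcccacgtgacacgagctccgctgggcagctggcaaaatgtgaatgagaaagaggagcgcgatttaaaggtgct

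The Klf4 stretch holds 4 GC boxes, of which a pair overlaps. The Klf2 stretch, cut to 221 bases, holds 2 and no CACCC box, while the full window of 250 bases holds 1 CACCC box. The Gbx2 stretch holds 1 GC box and 1 CACCC box. Of 32851 RefSeq windows of 250 bases upstream of a transcript start, 32.7% hold at least 1 GC box, 8.47% hold 3 or more, and 52.0% hold a CACCC box. The G and C content was 71.5% for Klf2, 74.0% for Klf4 and 61.1% for Gbx2, with a median of 52.4% over all windows. The letters TTCNNNGAA, the palindrome that STAT factors bind, occur in 7.02% of all windows and in none of the 3 stretches; among the windows of the factors they occur once, upstream of 1 of the annotated starts of Esrrb. These matches are descriptions of letters in a short window, not binding sites. A RefSeq window was found for 7 of the 10 factors, without Klf5, Tbx3 and Prdm14. GC boxes occurred in the Klf2, Klf4 and Gbx2 windows and in none of the windows of Esrrb, Tfcp2l1, Nr0b1 and Nr5a2. CACCC boxes were divided otherwise. They occurred in a window of Klf2, Gbx2, Esrrb, Nr0b1 and Nr5a2, and in none of Klf4 and Tfcp2l1. Whether either element goes with the differences was not tested.

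The Kruppel-like factors are zinc finger proteins that bind the same GC-rich sites, and KLF2, KLF4 and KLF5 together are needed for self-renewal. Klf2 (ENSMUSG00000055148.7, chromosome 8, 72319033 to 72321656 on GRCm38, plus strand) is a member whose protein ERK is known to mark for degradation. It was 52.6 FPKM (50.6 to 54.6) and 45.5 FPKM (43.7 to 47.4). The counting intervals of the levels do not overlap, and the ratio was 0.866 (0.820 to 0.916). Klf4 (ENSMUSG00000003032.8, chromosome 4, 55527143 to 55532466, minus strand), a direct STAT3 target and reprogramming factor, was 20.1 FPKM (19.2 to 21.1) and 17.5 FPKM (16.6 to 18.4), a ratio of 0.868 (0.810 to 0.931). Klf2 and Klf4 thus stood in the same proportion in both libraries, Klf4 being 0.383 and 0.384 of Klf2 in FPKM. Differences of this size were not rare: 6.59% of the 9965 protein-coding genes had a larger absolute difference than Klf2, and 7.66% a larger one than Klf4.

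Klf5 (ENSMUSG00000005148.8, chromosome 14, 99298691 to 99315036, plus strand), which is also needed for the inner cell mass and trophectoderm of the blastocyst, was 56.3 FPKM (54.2 to 58.4) and 53.0 FPKM (51.0 to 55.1). Its ratio was 0.942 (0.892 to 0.994), nearer to 1 than those of Klf2 and Klf4, and Klf5 exceeded Klf4 by 2.80-fold in the first library and 3.03-fold in the second. The level of Klf5 has a limit that the other factors do not share. Its deposited gene length is 1721 bases, while its exons in GENCODE M21 together cover 5201 bases, 3.02 times as long, and its 2 annotated transcripts there are 3352 and 2852 bases. For the other 9 factors the deposited length equals the M21 union, as it does for 81.0% of protein-coding genes compared. The place of Klf5 in the order of levels therefore depends on a gene model that differs from M21, whereas its ratio between libraries uses the same model on both sides.

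**Figure D1:**
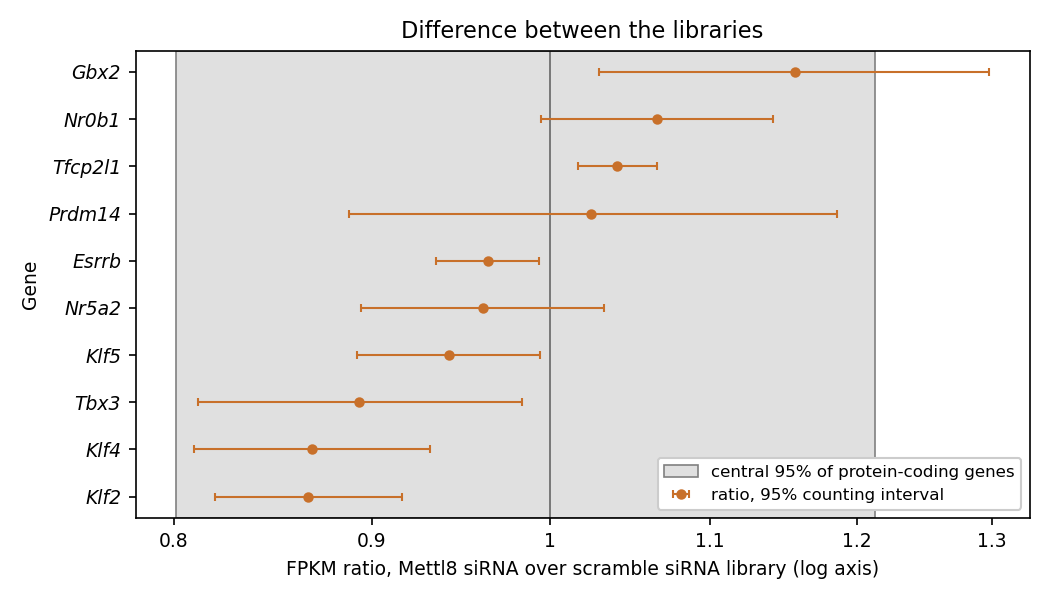
Ratio of FPKM between the libraries for each factor (horizontal log axis, library labelled Mettl8 siRNA over library labelled scramble siRNA), with its 95% counting interval as a bar and the central 95% of protein-coding gene ratios as a grey band. All 10 ratios lie inside the band of 0.801 to 1.21, with Klf2 lowest at 0.866 and Gbx2 highest at 1.16.

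Within their family, Klf5 and Klf2 were the highest of the 17 KLF genes of the table, and Klf4 ranked 4, behind Klf9. The 3 naive state factors made up 57.4% and 55.5% of the summed KLF family FPKM. Klf9, a factor known from hormone responses, was 33.5 and 32.0 FPKM. Outside the 3, 10 KLF genes had a mean of at least 1 FPKM, of which 4 were higher and 6 lower. Klf17, a KLF gene linked to human naive cells, was at 0.15 and 0.06 FPKM.

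The nuclear receptors among the factors are Esrrb, Nr0b1 and Nr5a2, which act in stem cells without a known steroid hormone. Esrrb (ENSMUSG00000021255.17, chromosome 12, 86361117 to 86521628, plus strand), the orphan receptor that can replace NANOG in self-renewal, was 50.1 FPKM (49.0 to 51.1) and 48.3 FPKM (47.2 to 49.3). Its ratio of 0.964 (0.935 to 0.994) rests on 8618 and 8118 reads, so that a ratio this close to 1 lies just outside counting error. This holds at the deposited scaling only. A larger absolute difference was found for 61.9% of protein-coding genes.

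Nr0b1 (ENSMUSG00000025056.4, chromosome X, 86191764 to 86195947, plus strand) encodes DAX1, an atypical receptor without the usual zinc finger DNA-binding domain that binds OCT4 and other receptors. It was 31.4 FPKM (29.9 to 33.0) and 33.4 FPKM (31.9 to 35.1), with overlapping intervals and a ratio of 1.07 (0.9947 to 1.14). Nr5a2 (ENSMUSG00000026398.14, chromosome 1, 136842571 to 136960448, minus strand), whose protein LRH-1 binds the Pou5f1 promoter, was 9.29 FPKM (8.84 to 9.76) and 8.93 FPKM (8.48 to 9.40). Its ratio of 0.961 (0.894 to 1.03) was within counting error of 1. The 3 receptors lay on both sides of 1.

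Among the 48 nuclear receptor genes of the table, Esrrb ranked 1, Nr0b1 2 and Nr5a2 5, the last behind the retinoid receptor genes Rarg and Rxrb. Together the 3 factors held 51.2% and 50.5% of the summed FPKM of this family. Rarg, a receptor for retinoic acid, was 22.3 and 24.99 FPKM, a ratio of 1.12 (1.07 to 1.19). Esrrb exceeded its paralog Esrra by 12.4-fold and 12.3-fold in FPKM.

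**Figure D2:**
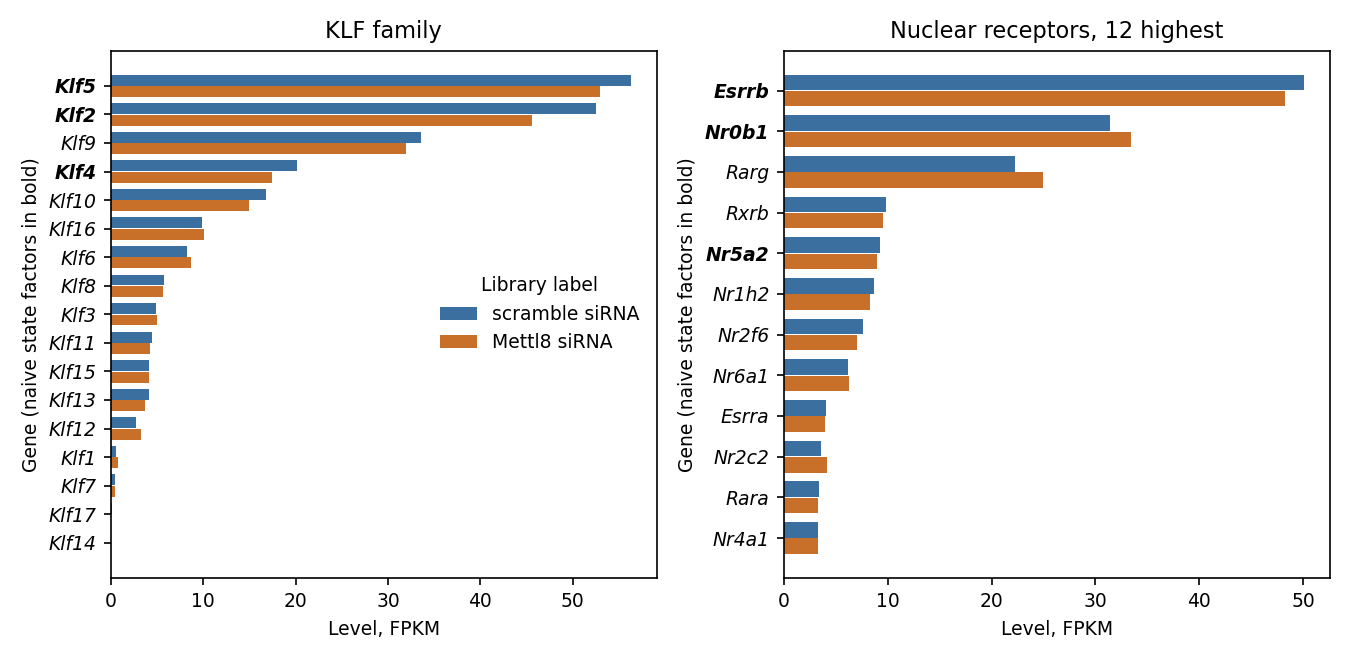
Levels in FPKM (horizontal bars from 0) of the 17 KLF genes and of the 12 highest nuclear receptor genes in the library labelled scramble siRNA (blue) and the library labelled Mettl8 siRNA (orange), with the naive state factors in bold. Klf5, Klf2, Esrrb and Nr0b1 lead their families in both libraries, and Klf2 is 52.6 and 45.5 FPKM.

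Tfcp2l1 and Gbx2 are targets of LIF and STAT3 outside the KLF family. Tfcp2l1 (ENSMUSG00000026380.10, chromosome 1, 118627945 to 118685168, plus strand), a CP2-type factor that can replace LIF signalling when supplied in excess, was 51.7 FPKM (50.8 to 52.5) and 53.8 FPKM (52.9 to 54.7). It carried the most reads of the 10 factors, 13877 and 14120, and its ratio of 1.04 (1.02 to 1.07) lies above 1 by more than counting error. Its exons overlap the small nuclear RNA gene Gm23497 over 130 bases, and that gene held 451 and 501 reads in the table. Tfcp2l1 made up 67.2% and 68.8% of the summed FPKM of the 6 CP2 and grainyhead genes, with Ubp1 next at 16.9 and 16.2 FPKM.

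Gbx2 (ENSMUSG00000034486.8, chromosome 1, 89927956 to 89931179, minus strand), a homeobox factor of the stem cell state and later of the hindbrain, was 9.05 FPKM (8.32 to 9.84) and 10.5 FPKM (9.67 to 11.3). The intervals of the levels overlap slightly, while that of the ratio, 1.16 (1.03 to 1.298), lies above 1. The opposite-strand gene D130058E05Rik (2.93 and 3.09 FPKM) shares 946 bases of exon with Gbx2, whose length is 2177 bases, and the strand setting of the counting is not given. If the counting ignored the strand, reads of these genes cannot be told apart where they overlap. The only other GBX gene, Gbx1, was 0.17 and 0.09 FPKM.

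Tbx3 and Prdm14 had the lowest levels of the 10. Tbx3 (ENSMUSG00000018604.18, chromosome 5, 119670669 to 119684724, plus strand), a T-box factor that acts downstream of PI3 kinase and also takes part in primitive endoderm formation, was 4.86 FPKM (4.55 to 5.18) and 4.34 FPKM (4.05 to 4.65). The intervals of the levels overlap slightly, and the ratio was 0.893 (0.812 to 0.984), on 916 and 800 reads. The opposite-strand gene Tbx3os1 shares 115 bases of exon with it and held 57 and 39 reads. Of 17 T-box genes only Tbx3 and Mga, the partner of MAX, had a mean of at least 1 FPKM, and Mga was higher than Tbx3, at 9.98 and 10.6 FPKM.

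Prdm14 (ENSMUSG00000042414.7, chromosome 1, 13113457 to 13127163, minus strand), a factor that represses FGF receptor and de novo DNA methyltransferase genes together with Polycomb, was 5.21 FPKM (4.70 to 5.76) and 5.34 FPKM (4.82 to 5.91). The ratio was 1.02 (0.888 to 1.19), and 78.0% of protein-coding genes had a larger absolute difference. With 380 and 381 reads it was the factor with the fewest, and no difference was detectable at this depth. In its family Prdm14 ranked 3 of 15 genes, behind Prdm4 (10.7 and 11.3 FPKM) and Prdm2 (5.42 and 5.80 FPKM).

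The order of the levels was similar in both libraries. The highest tier held Klf5, Klf2, Tfcp2l1 and Esrrb, at 50.1 to 56.3 FPKM under the scramble label and 45.5 to 53.8 FPKM under the Mettl8 label. In the first library no neighbours within this tier were apart beyond counting error, and the order was Klf5, Klf2, Tfcp2l1, Esrrb. In the second the order was Tfcp2l1, Klf5, Esrrb, Klf2, and Klf5 and Esrrb did not overlap. Nr0b1 and then Klf4 followed, each apart from its neighbours in both libraries. Nr5a2 and Gbx2 came next and overlapped in the library labelled scramble siRNA, where Nr5a2 was nominally higher, whereas Gbx2 was higher and apart in the other. Prdm14 and Tbx3 were last, overlapping in the first library and apart in the second. Gbx2 was 1.86 and 2.41 times Tbx3, and Klf2 was 5.81 and 4.35 times Gbx2. Among protein-coding genes, Klf5 ranked 352 and 394 of 21490, Klf2 383 and 475, and Tbx3 5259 and 5673.

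**Figure D3:**
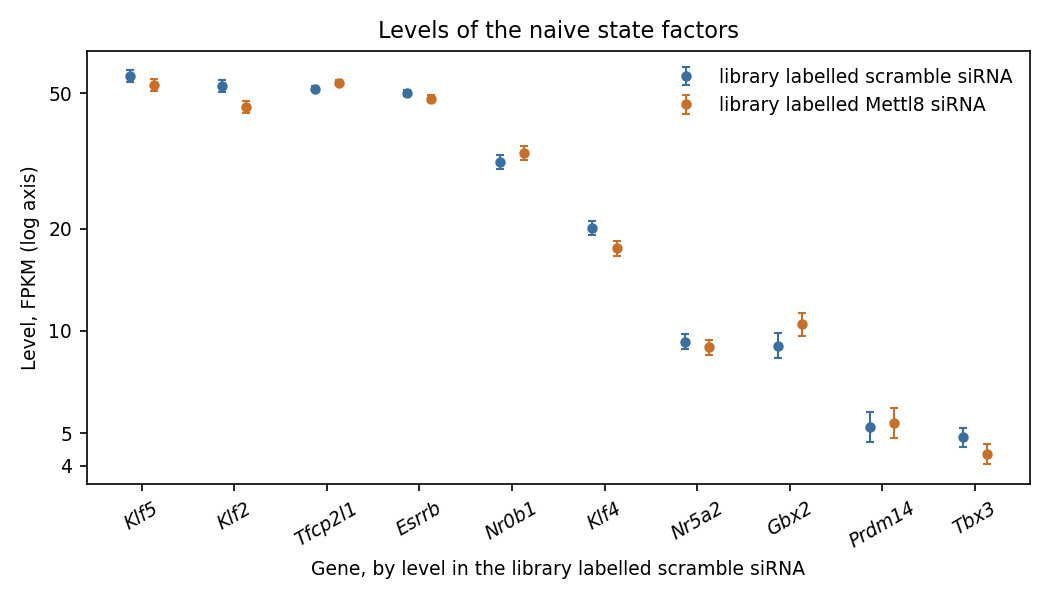
Level of each factor in FPKM (vertical log axis) in the library labelled scramble siRNA (blue) and the library labelled Mettl8 siRNA (orange), with 95% counting intervals. The 10 factors span from 4.34 to 56.3 FPKM, and the distance between the libraries is small beside the distance between genes.

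Counting intervals of the ratio lay below 1 for 5 of the 10 factors, Klf2, Klf4, Klf5, Esrrb and Tbx3, and above 1 for 2, Tfcp2l1 and Gbx2. Of the 9965 protein-coding genes, 8.76% had an interval below 1 and 13.8% one above 1. Deep genes have narrow intervals, and among the 6710 protein-coding genes with at least as many reads as Prdm14 the shares were 9.85% and 18.3%. Such an interval compares these libraries and not the conditions. The intervals hold at the deposited scaling only, and their counts were not repeated under the others. With the same FPKM sum, Klf5 and Esrrb changed from lower to higher. Without Mettl8, the log2 differences of those 6710 genes had a standard deviation of 0.096, beside which Klf2 lay at -0.20, Klf4 at -0.19, Tbx3 at -0.13 and Gbx2 at 0.19.

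The genes that feed the naive state factors were compared in the same way. Counts in this and the following lists are as deposited and were not repeated under the other scalings. As deposited, 44.5% of protein-coding genes were lower. In the LIF and STAT3 list, 5 of 10 measured genes were higher and 5 lower. Their median was -0.018 on the log2 scale. Stat3 was 5.75 and 6.17 FPKM, while its targets Socs3, a feedback inhibitor, and the kinase genes Pim1 and Pim3 were lower: 25.6 and 23.5, 21.6 and 20.1, and 15.9 and 14.0 FPKM. Jak2, a kinase gene of the pathway, was 1.17 and 1.32 FPKM. Of the STAT3 targets named here, Klf4, Socs3, Pim1 and Pim3 were lower, and Tfcp2l1 and Gbx2 higher.

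In the WNT list, 7 of 10 genes had a mean of at least 1 FPKM, with 3 higher and 4 lower and a median of -0.034. Tcf7l1, the repressor of Esrrb and Tfcp2l1, was 2.51 and 1.99 FPKM, a ratio of 0.793 (0.661 to 0.9501). Axin1 was 8.79 and 7.86 FPKM, Ctnnb1, the gene of beta-catenin, 10.9 and 10.3, and Gsk3b 3.28 and 3.53. In the FGF and ERK list, 5 of 14 genes were higher, 8 lower and 1 equal, and the median was -0.0056. Dusp6, an ERK phosphatase gene that ERK induces, was 9.69 and 11.7 FPKM, a ratio of 1.204 (1.099 to 1.32), and the ETS factor gene Etv4 was 16.1 and 17.6. Etv5, Spry4 and Spry2 of the same list lay near 1, with ratios 1.018 (0.978 to 1.06), 1.013 (0.96 to 1.068) and 0.997 (0.934 to 1.065). Whether ERK output differed was not tested. Sos1, which activates RAS, was 3.12 and 2.71 FPKM, and Map2k2, the gene of MEK2, 6.18 and 5.69.

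The core genes Pou5f1, Nanog and Sox2 were more abundant than each of the 10 factors in both libraries. Pou5f1 was 155 and 164 FPKM, Nanog 175 and 173, Sox2 94.8 and 85.8, and Sall4 50.5 and 54.5. The list of core partners had 3 higher and 4 lower of 7 genes and a median of -0.011. Sox2, at a ratio of 0.905 (0.871 to 0.940), was the furthest from 1. Other genes of the naive state, 11 in all, were higher in 3 cases and lower in 8 as deposited, and their median was -0.037. The share of protein-coding genes that were lower was 44.5%. The same FPKM sum raises a log2 difference by up to 0.094, more than the size of this median, so the count depends on the scaling. Zfp42, the gene of REX1, was 104 and 98.0 FPKM, Tcl1 27.2 and 25.7, and Pecam1 5.14 and 5.47. Dppa3, the gene of Stella, was 2.91 and 2.46 FPKM on 74 and 61 reads, a ratio of 0.845 (0.591 to 1.2).

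Partners and repressed genes of PRDM14 numbered 13. Their median was 0.011, and 7 were higher against 6 lower. The Polycomb genes Ezh2 (12.7 and 15.2 FPKM) and Eed (22.9 and 25.7) had the largest differences in the list, at log2 differences of 0.24 and 0.16. Suz12, also a Polycomb gene, was 41.5 and 41.4 FPKM, a ratio of 0.998. Tfap2c and Prdm1, which act with PRDM14 in primordial germ cells, were 11.99 and 10.7 FPKM and 3.56 and 3.19 FPKM. Of 8 germ cell genes, 4 were higher and 4 lower, and Kit, a receptor tyrosine kinase gene, was 4.63 and 3.91 FPKM.

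Factors of the formative and primed states, which follow the naive state, were lower in 7 and higher in 4 of 11 measured genes as deposited, with a median of -0.049. Otx2 was 4.66 and 3.86 FPKM, a ratio of 0.828 (0.719 to 0.953). Utf1, which stem cells also express, was 43.5 and 36.9, Zic5 2.75 and 2.33, and Foxd3 4.28 and 5.03 FPKM. Fgf5, a marker of the primed epiblast, was at 0.08 and 0 FPKM, on 6 reads and 0 reads, and a count of 0 does not show absence. Pou3f1 was at 0.91 and 0.65 FPKM. Esrrb exceeded Otx2 by 10.7-fold and 12.5-fold.

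Most markers of primitive endoderm, trophectoderm and fibroblasts had a mean below 1 FPKM, with exceptions such as Fn1, Vim and Tfap2c. Of 12 primitive endoderm markers, 2 had a mean of at least 1 FPKM (Lama1 at 4.87 and 4.4 FPKM, Col4a1 at 1.47 and 1.26), while Gata6 was 0.07 and 0.10 and Sox17 0.01 and 0.03. The summed level of these 12 was 8.18 and 7.60 FPKM. Of 12 trophectoderm markers, 4 were measured, with Tfap2c at 11.99 and 10.7 FPKM and Cdx2 at 0.03 and 0.06, and their sum was 20.9 and 19.3. For fibroblasts, the usual feeder cells, 4 of 14 markers were measured, led by Fn1 (34.4 and 29.2 FPKM) and Vim (17.2 and 18.9), and their sum was 57.0 and 52.7 FPKM. The defining collagen genes Col1a1, Col1a2 and Col3a1 were at most 0.12 FPKM in either library. Markers listed at 0 in both libraries numbered 0 in each of these lists. Whether other cells had a part in the differences of the factors was not tested, and in bulk RNA fewer cells of a type and less RNA per cell cannot be told apart.

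**Figure D4:**
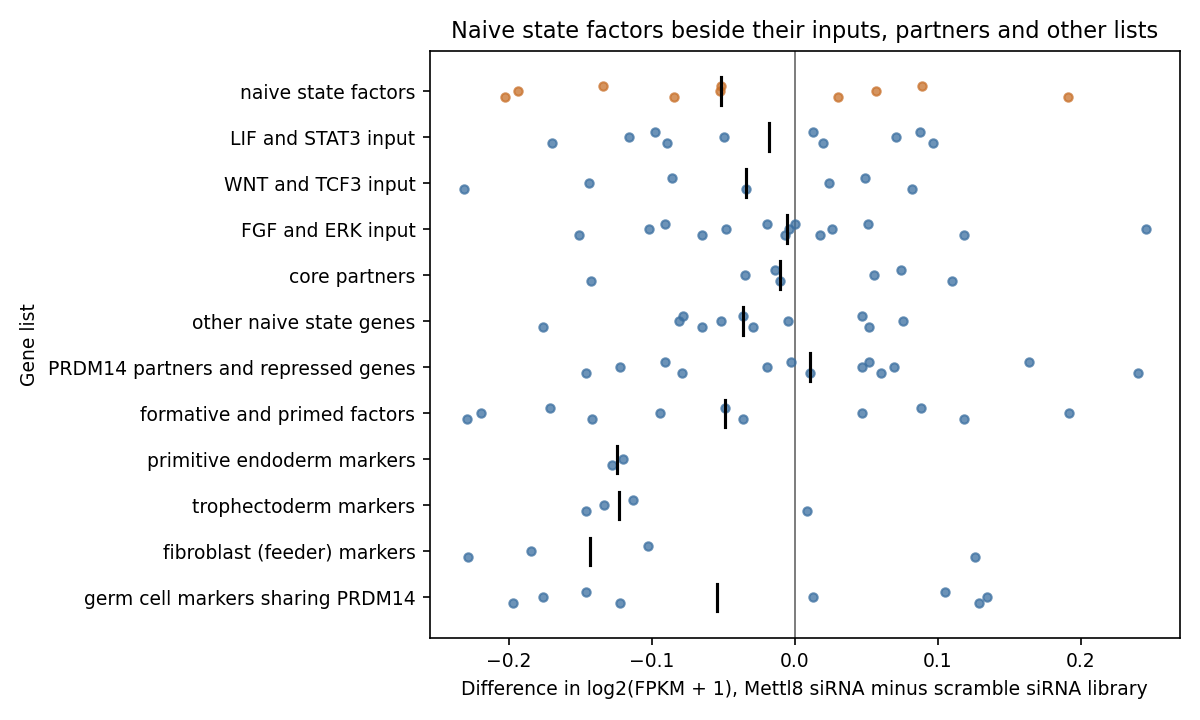
Difference in log2(FPKM + 1) between the library labelled Mettl8 siRNA and the library labelled scramble siRNA (horizontal axis) for each gene with a mean of at least 1 FPKM in 12 lists (rows), with a black bar at the list median. The naive state factors (orange) spread from -0.20 to 0.19 around a median of -0.052. Some lists cover this span, such as the formative and primed factors (-0.23 to 0.19). Others cover little of it, such as the primitive endoderm markers (-0.128 to -0.120).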

How the data were processed

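RNA of 2 libraries, 1 per group, was sequenced. Per the submitters' processing notes, STAR 2.4.0i, featureCounts 1.5.0-p1 and the mm10 build were used; the sources used here do not give the annotation, the strand setting or the handling of multi-mapping reads. The values deposited by the authors are FPKM rounded to 2 decimals, beside a gene length. Symbols were matched to GENCODE M21 (GRCm38, the assembly of mm10), which holds 94.3% of them.

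Reads were rebuilt as whole multiples of the FPKM step of each library. Among genes under 400 bases with under 30 reads, 100% of 3120 and 3561 values were whole within rounding plus 0.005 reads. Differences are log2(FPKM + 1), with a pseudocount of 1, for genes with a mean of at least 1 FPKM. The steps were tested on simulated data. With 1 library per group, no test was made and limma was not applicable.

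Named are all 10 factors, up to 4 genes per list by absolute difference, Mettl8, Stat3, Pou5f1, Sox2, Nanog and Zfp42, and the leading genes of each family. List markers near 0 are also named and were chosen after their values were seen. The same holds for Klf17, Esrra, Gbx1, Etv5, Spry2, Spry4 and Suz12. With 2 libraries no gene was named for a like pattern. Factors and lists were chosen with earlier results of these data known. Alternatives were a pseudocount of 0.1, 2 scalings, other filters and a 1.5-fold threshold. Python 3.11.15, scipy 1.17.1 and pandas 2.3.3 were used.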

Additional observations from a re-analysis of the deposited data

How the results depend on the processing

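With both libraries rescaled to the same FPKM sum, a factor of 1.07 on the library labelled Mettl8 siRNA, 7 factors were higher and 3 lower, instead of 4 and 6. The median of the factors became 0.036 and their summed level in that library 299.4 FPKM instead of 280.6. Under this scaling Klf5 (0.0071), Esrrb (0.040) and Nr5a2 (0.033) turned above 0 on the log2 scale, and the median of all genes moved from 0.013 to 0.089. As deposited, the FPKM sum was 623700 and 584500 over all genes, and 142900 and 144000 over protein-coding genes. Klf2, Klf4 and Tbx3 were lower and Gbx2, Tfcp2l1, Nr0b1 and Prdm14 higher under each scaling and pseudocount run. With the median ratio set to 1, all 10 directions were kept and the median of all genes became -0.0085. A pseudocount of 0.1 also kept all 10. No factor reached 2-fold under any setting, nor 1.5-fold where that threshold was used. At a mean of at least 5 FPKM, Tbx3 drops out and 5 factors were lower. No paired analysis was possible because each group has 1 library, and for the same reason no library could be left out. Depth limits Prdm14 (380 and 381 reads) and Gbx2 (561 and 634) most.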
